A study of Mus musculus with 36 samples.

Results

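The set holds 10 genes of DNA methylation and of the Polycomb group: Dnmt1, Dnmt3a, Dnmt3b, Dnmt3l, Uhrf1, Ezh2, Eed, Suz12, Cbx2 and Cbx7. Members were taken by symbol: all 18 probes of the array table that carry 1 of these names were used, out of 45281 probes of 30869 symbols. Of the 18 probes, 13 passed the filter on dim probes, that is, they were detected on at least 1 array. These 13 probes cover 9 of the 10 genes, among 15556 symbols tested in all. A gene with several probes is counted by its brightest probe, and its other tested probes are given beside it.

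DNA methyltransferases place methyl groups on cytosines that stand before guanines. Dnmt3a and Dnmt3b set new methylation with the help of the catalytically inactive Dnmt3l, while Dnmt1, led to freshly copied DNA by Uhrf1, keeps the pattern through cell division. Polycomb repressive complex 2, with Ezh2, Eed and Suz12 at its core, methylates lysine 27 of histone H3, and Cbx proteins such as Cbx2 and Cbx7 let Polycomb repressive complex 1 bind that mark. In the early embryo both systems are known for silencing as the epiblast leaves pluripotency, and Polycomb for keeping Hox genes off until their turn along the axis.

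RNA from regions cut out of wild-type MF1 mouse embryos was amplified and read on 36 Illumina MouseWG-6 v2.0 arrays, which cover 16 regions. Pieces of several embryos were pooled for each array. Replicates are therefore pools, and every p-value here measures spread between pools. No embryo was treated and all carried the same wild-type genotype.

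At E7.5, the headfold stage, there were 3 arrays of the anterior region A (9, 13 and 25 pieces), 2 of the posterior region P (9 and 13) and 2 of the proximal posterior region PP (12 and 15). At E8.5, with 2 to 5 somites, there were 2 arrays each of the rostral node RN, the anterior streak St1 and the posterior streak St5, all with 45 pieces. That stage also had 3 arrays of the node-streak border NSB (45, 45 and 57 pieces) and 3 of the caudal lateral epiblast CLE (12, 43 and 36). Daily samples of the chordoneural hinge, or CNH, came from tail buds: at E9.5 with 22 to 25 somites (6 and 10 pieces), at E10.5 with 32 to 35 (17 and 17) and at E11.5 with 40 to 45 (38, 29 and 52). It followed at E12.5 with 50 to 55 somites (15 and 33 pieces) and at E13.5 with 60 to 63 (48 and 74). The region posterior to it, P-CNH, was taken at E9.5 (6 and 11 pieces), E10.5 (17 and 17) and E11.5 (33 and 65). Below, early means the 8 regions of E7.5 and E8.5 with 19 arrays, and late the 8 regions from E9.5 onwards with 17.

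Levels are log2 intensities after background correction and quantile normalisation, and a probe counts as detected on an array where its detection p-value is under 0.01. Between 10814 and 16256 probes were detected on an array. The lowest numbers belong to E13.5 CNH replicate 2 (10814) and E8.5 CLE replicate 1 (11062). Replicate arrays correlated across all tested probes with r between 0.858 (E13.5 CNH) and 0.997 (the CNH at E9.5). The labels put the arrays in 3 batches of 12. Batch 1 holds every array of CNH and P-CNH at E10.5, of St5, of St1 and of RN, and 2 of NSB, so that only NSB replicate 3 ties it to the others. The model carries a term for batch. The number of arrays, 2 or 3 in a region, limits the precision.

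Markers of streak and tail bud (T, Fgf8, Wnt3a, Cdx2, Tbx6 and Nkx1-2) were all detected on every array of each region except E7.5 A, where Wnt3a and Tbx6 were undetected. Of 5 node and notochord markers, all were detected on every array of RN and NSB, while Noto, Shh and Foxa2 were undetected in CLE and in P-CNH at E9.5 and E10.5. Node markers thus set RN and NSB apart from CLE and the early P-CNH. In bulk tissue, fewer cells of a type and less RNA per cell cannot be told apart.

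Over the 16 regions, Dnmt3b, its cofactor Dnmt3l and Cbx7 varied most clearly, and neither maintenance gene was called. To be called, a difference needed 1.5-fold or more and an adjusted p no higher than 0.05. In limma's F test over the regions, 4 of 9 tested members were called: Dnmt3b (adjusted p = 2.01e-10), Dnmt3l (1.81e-09), Cbx7 (5.01e-12) and Ezh2 (0.036). The same test called 35.6% of all 21712 tested probes, so that the number of varying members lies near the share in the whole table.

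**Figure D1:**
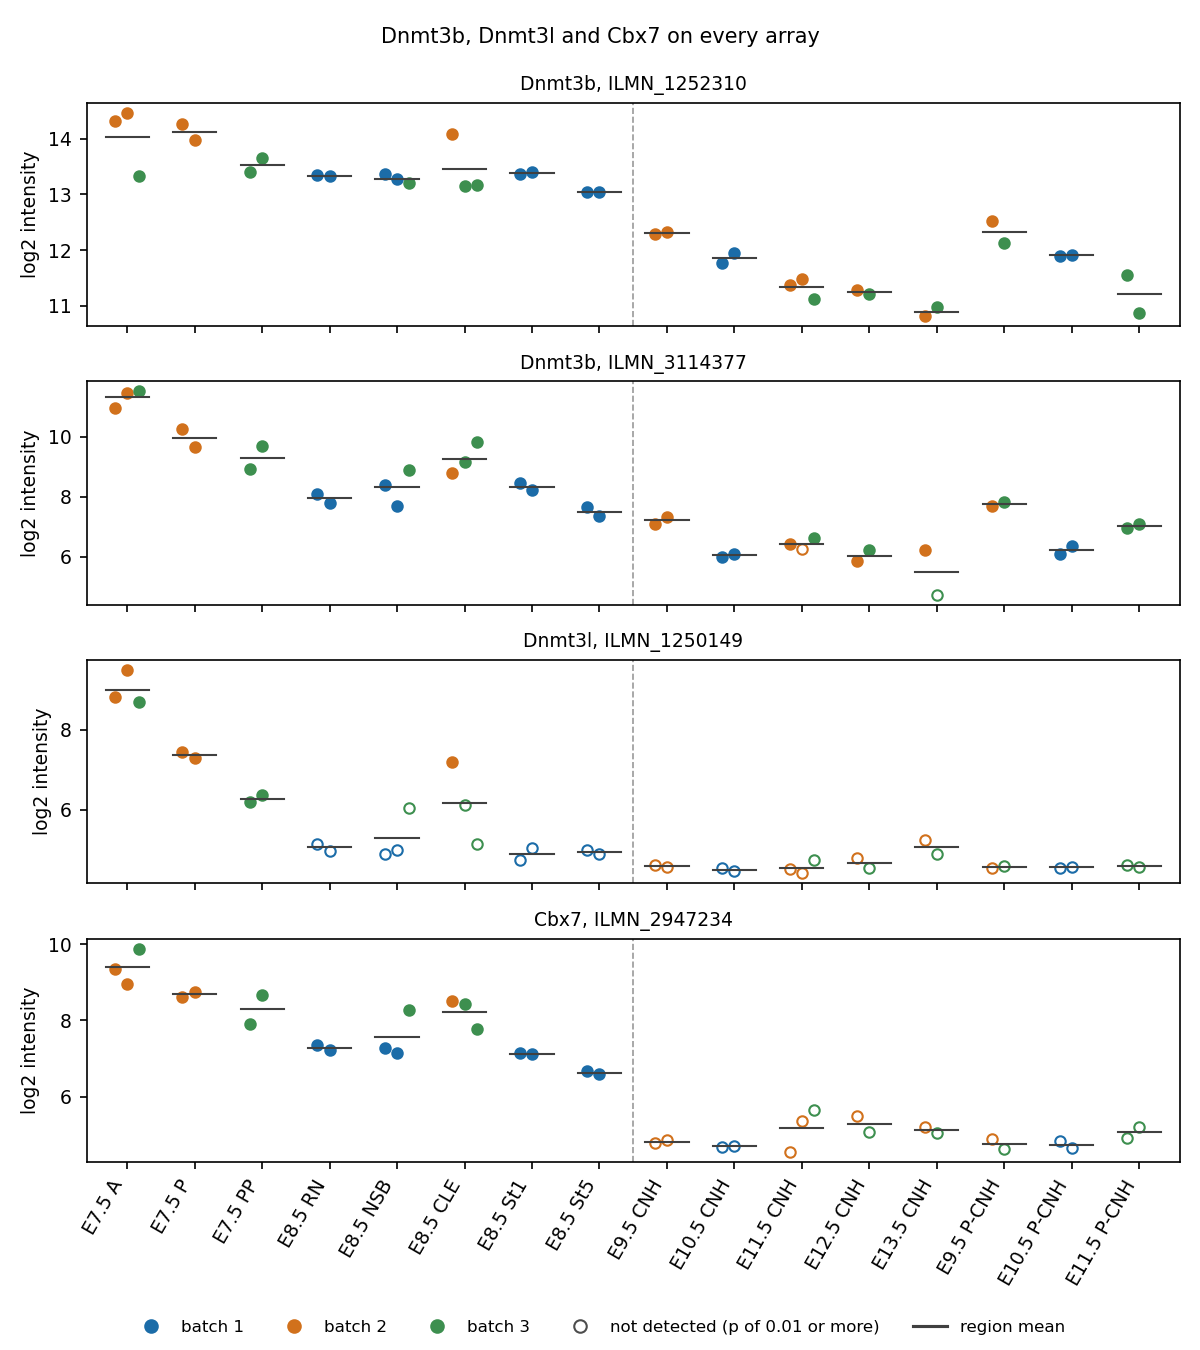
Log2 intensity of Dnmt3b (both probes), Dnmt3l and Cbx7 on each of the 36 arrays, by region, with early regions left of the dashed line. Filled points are detected, open points undetected, colours mark the batch and lines the mean of a region; Cbx7 is filled on all 19 early arrays and open on all 17 late arrays.

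Dnmt3b, which sets new methylation, was detected on all 36 arrays through ILMN_1252310. At E7.5 its log2 intensity was 14.33, 14.47 and 13.32 on the A arrays, 14.27 and 13.98 on the P arrays and 13.41 and 13.66 on the PP arrays. At E8.5 it was 13.35 and 13.32 in RN, 13.37, 13.28 and 13.21 in NSB, 14.08, 13.15 and 13.17 in CLE, 13.36 and 13.41 in St1 and 13.05 and 13.05 in St5. In the CNH it was 12.29 and 12.32 at E9.5, 11.77 and 11.94 at E10.5, 11.38, 11.48 and 11.13 at E11.5, 11.28 and 11.21 at E12.5 and 10.82 and 10.97 at E13.5. The 3 highest values came from E7.5, and the mean of the CNH arrays was lower on each later day. In P-CNH the probe read 12.52 and 12.14 at E9.5, 11.89 and 11.91 at E10.5 and 11.55 and 10.86 at E11.5. All 19 early arrays, at 13.05 or more, lay above all 17 late arrays, at 12.52 or less.

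The fitted order of regions for Dnmt3b ran from E7.5 A (13.92) through P, PP, CLE, St1, RN and NSB to St5 (13.13), and on through E9.5 P-CNH (12.29), E9.5 CNH, E10.5 P-CNH, E10.5 CNH, E11.5 P-CNH, E11.5 CNH and E12.5 CNH to E13.5 CNH (10.85). No step between neighbours in that order had a 95% interval that excluded 0. The widest step, 0.85 from St5 to E9.5 P-CNH, had an interval from -0.01 to 1.70. The decline is thus resolved over several regions, not between neighbours.

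The other Dnmt3b probe, ILMN_3114377, was detected on 34 of 36 arrays. At E7.5 it read 10.95, 11.47 and 11.52 in A, 10.27 and 9.66 in P and 8.92 and 9.69 in PP. Over the 12 E8.5 arrays it ranged from 7.35 to 9.82, and over the late arrays the lowest, median and highest values were 4.74, 6.36 and 7.83. It too was high in A and low in the late CNH, although its early and late ranges overlapped.

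Dnmt3l, the cofactor without catalytic activity, was detected in few regions. Its probe ILMN_1250149 read 8.84, 9.499 and 8.70 in E7.5 A, 7.44 and 7.31 in P and 6.19 and 6.37 in PP, all detected. Among the 12 arrays of E8.5 it was detected on 1, CLE replicate 1 at 7.21, and the others lay between 4.76 and 6.13. It was undetected on all 17 late arrays, at 4.42 to 5.25. The other probe, ILMN_3112268, was detected on the same 7 arrays of E7.5 and on no other array: it read 8.38, 8.76 and 8.46 in A, 6.58 and 7.35 in P and 6.00 and 6.40 in PP. Dnmt3l signal thus stood highest in the anterior region of the headfold embryo. In the fitted order the step from A to P, 1.77, was the only one between neighbours whose 95% interval excluded 0.

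Cbx7, which lets Polycomb repressive complex 1 bind methylated histone H3, has 1 probe, ILMN_2947234. It read 9.35, 8.96 and 9.88 in E7.5 A, 8.62 and 8.75 in P and 7.91 and 8.68 in PP. At E8.5 it read 7.35 and 7.23 in RN, 7.28, 7.16 and 8.29 in NSB, 8.51, 8.42 and 7.76 in CLE, 7.13 and 7.12 in St1 and 6.66 and 6.58 in St5. On the 17 late arrays the lowest, median and highest values were 4.55, 4.90 and 5.66, all undetected. The groups did not overlap: Cbx7 was detected on every early array and on no late array. Such a pattern was shown by 19 of 21712 probes (0.0875%), and early arrays all lay above late arrays for 91 probes (0.419%), among them the chosen probes of 2 members, Dnmt3b and Cbx7.

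In the fitted order of regions for Cbx7, every early region stood above every late region. Among the early regions, the step of 0.69 from A (9.07) to P (8.38) was the only one between neighbours whose 95% interval excluded 0 (0.06 to 1.32). Late regions are not ordered here, since all their values were undetected.

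The promoters of the 3 members that fell together are shown here because methylation acts at CpG, and because these sequences differ in how many CpG they hold. The 250 bases before the start of each gene come from the RefSeq promoter table of build GRCm38.p6, written 5′ to 3′ with each CpG in capitals. Dnmt3b lies at chr2:153649199-153649448, plus strand, Dnmt3l at chr10:78042037-78042286, plus strand (the first of its 3 listed starts) and Cbx7 at chr15:79932647-79932896, minus strand.
Dnmt3b: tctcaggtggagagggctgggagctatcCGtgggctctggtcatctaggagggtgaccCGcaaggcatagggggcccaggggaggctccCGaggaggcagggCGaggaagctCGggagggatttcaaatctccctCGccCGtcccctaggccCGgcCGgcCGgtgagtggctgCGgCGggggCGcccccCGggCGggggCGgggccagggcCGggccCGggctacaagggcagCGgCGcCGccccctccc
Dnmt3l: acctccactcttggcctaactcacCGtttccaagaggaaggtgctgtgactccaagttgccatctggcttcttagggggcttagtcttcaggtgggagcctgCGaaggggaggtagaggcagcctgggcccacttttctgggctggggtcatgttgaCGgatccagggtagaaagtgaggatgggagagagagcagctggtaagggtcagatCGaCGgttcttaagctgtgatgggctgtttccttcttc
Cbx7: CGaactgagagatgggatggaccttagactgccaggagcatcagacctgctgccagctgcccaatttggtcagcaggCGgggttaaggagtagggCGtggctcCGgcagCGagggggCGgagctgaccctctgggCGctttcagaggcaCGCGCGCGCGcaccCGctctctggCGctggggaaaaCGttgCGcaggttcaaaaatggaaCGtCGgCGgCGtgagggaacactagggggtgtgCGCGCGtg
The Dnmt3b stretch holds 21 CpG, that of Cbx7 23 and that of Dnmt3l 5. In the full 300-base windows, Dnmt3b has 30 and Cbx7 33, and the 3 windows of Dnmt3l have 6, 4 and 3. Over all 32851 windows of the table the median is 7, with quartiles of 3 and 20. Of the 10 members, 9 have a window. These counts describe the genome and not the methylation of these embryos, which was not measured.

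Dnmt3a, the other catalytic gene for new methylation, could not be followed. Its 3 probes were detected on 0 of 36 arrays, with lowest detection p-values of 0.0833 (ILMN_1256464), 0.501 (ILMN_1224446) and 0.169 (ILMN_1259562). Their log2 intensities lay between 4.38 and 5.54. Nothing can be said from these arrays of how much Dnmt3a RNA the regions held.

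Dnmt1 and Uhrf1, which maintain methylation, were detected on all 36 arrays. Dnmt1 (ILMN_2720451) ranged from 10.83 to 12.00, with a median of 11.28 over early and 11.36 over late arrays. Uhrf1 (ILMN_2517041) ranged from 12.25 to 13.68, with medians of 13.18 and 13.18. It differed by batch, from 13.33 to 13.68 in batch 1, 12.25 to 13.29 in batch 2 and 12.63 to 13.47 in batch 3. The other Uhrf1 probe, ILMN_2497581, was detected on 11 arrays, all of batch 1. Neither gene was called over the 16 regions (adjusted p = 0.827 for Dnmt1 and 0.918 for Uhrf1).

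Promoters of several members whose level was not called between early and late hold a form of the E2F motif, known from genes of S phase. The forms TTTGGCGC, TTTCCCGC and TTTCGCGC were searched on both strands of the windows. Each 30-base stretch below runs 5′ to 3′ on the strand of its gene in build GRCm38.p6, with the match in capitals, and for the second Dnmt1 stretch the match is the reverse complement of TTTCGCGC.
Dnmt1: gcgcggggcagcgTTTGGCGCgggctgtgc
Dnmt1: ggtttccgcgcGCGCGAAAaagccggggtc
Uhrf1: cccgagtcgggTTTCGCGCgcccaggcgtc
Ezh2: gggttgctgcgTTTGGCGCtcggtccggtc
Suz12: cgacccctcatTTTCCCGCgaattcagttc
In this order they lie at chr9:20952574-20952603 and chr9:20952824-20952853 (minus strand), chr17:56304117-56304146 (plus), chr6:47595009-47595038 (minus) and chr11:79992876-79992905 (plus). Of all 32851 windows, 0.514% hold TTTGGCGC, 1.07% TTTCCCGC and 0.323% TTTCGCGC. The other 2 of 3 Dnmt1 windows and the other of 2 Uhrf1 windows held no match. None of the windows of Dnmt3a, Dnmt3b, Dnmt3l, Eed and Cbx7 held any of these letters. A match is a description of the sequence, and no binding was measured.

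Among the core genes of Polycomb repressive complex 2, the levels of Ezh2 and Eed moved with batch. Ezh2, the methyltransferase of the complex, was detected on 32 arrays through ILMN_1234171. It ranged from 10.14 to 11.21 in batch 1, from 9.12 to 11.69 in batch 2 and from 4.77 to 9.46 in batch 3. The other tested probe, ILMN_2988572, was detected on 34 arrays, with medians of 7.37, 7.09 and 7.82 in batches 1, 2 and 3, and ILMN_2606429 on 0. The first probe was thus lowest, and the other highest, in the same batch. The F test over regions called the first probe (adjusted p = 0.036) and not the other (0.711), and the part of batch in that call was not tested. The call was lost when any 1 of 11 arrays was left out, among them both arrays of E7.5 P, St1, St5, E9.5 CNH and E10.5 CNH.

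Eed, which binds the trimethylated mark, ranged from 10.46 to 10.88 in batch 1, from 7.14 to 9.56 in batch 2 and from 9.26 to 10.53 in batch 3 (ILMN_2765015). Suz12, which holds the complex together, ranged from 10.20 to 12.37 over all arrays (ILMN_3009010), and its other probe, ILMN_2764991, was detected on 0. Both had an adjusted p above 0.05 over the regions (0.408 for Eed and 0.0749 for Suz12). Cbx2, another reader of the histone mark in Polycomb repressive complex 1, ranged from 8.02 to 10.82 (ILMN_2692207, adjusted p = 0.468 in the F test). Its medians were 8.87, 9.70 and 9.80 in batches 1, 2 and 3. These 3 genes were detected on all 36 arrays, from headfold to E13.5.

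**Figure D2:**
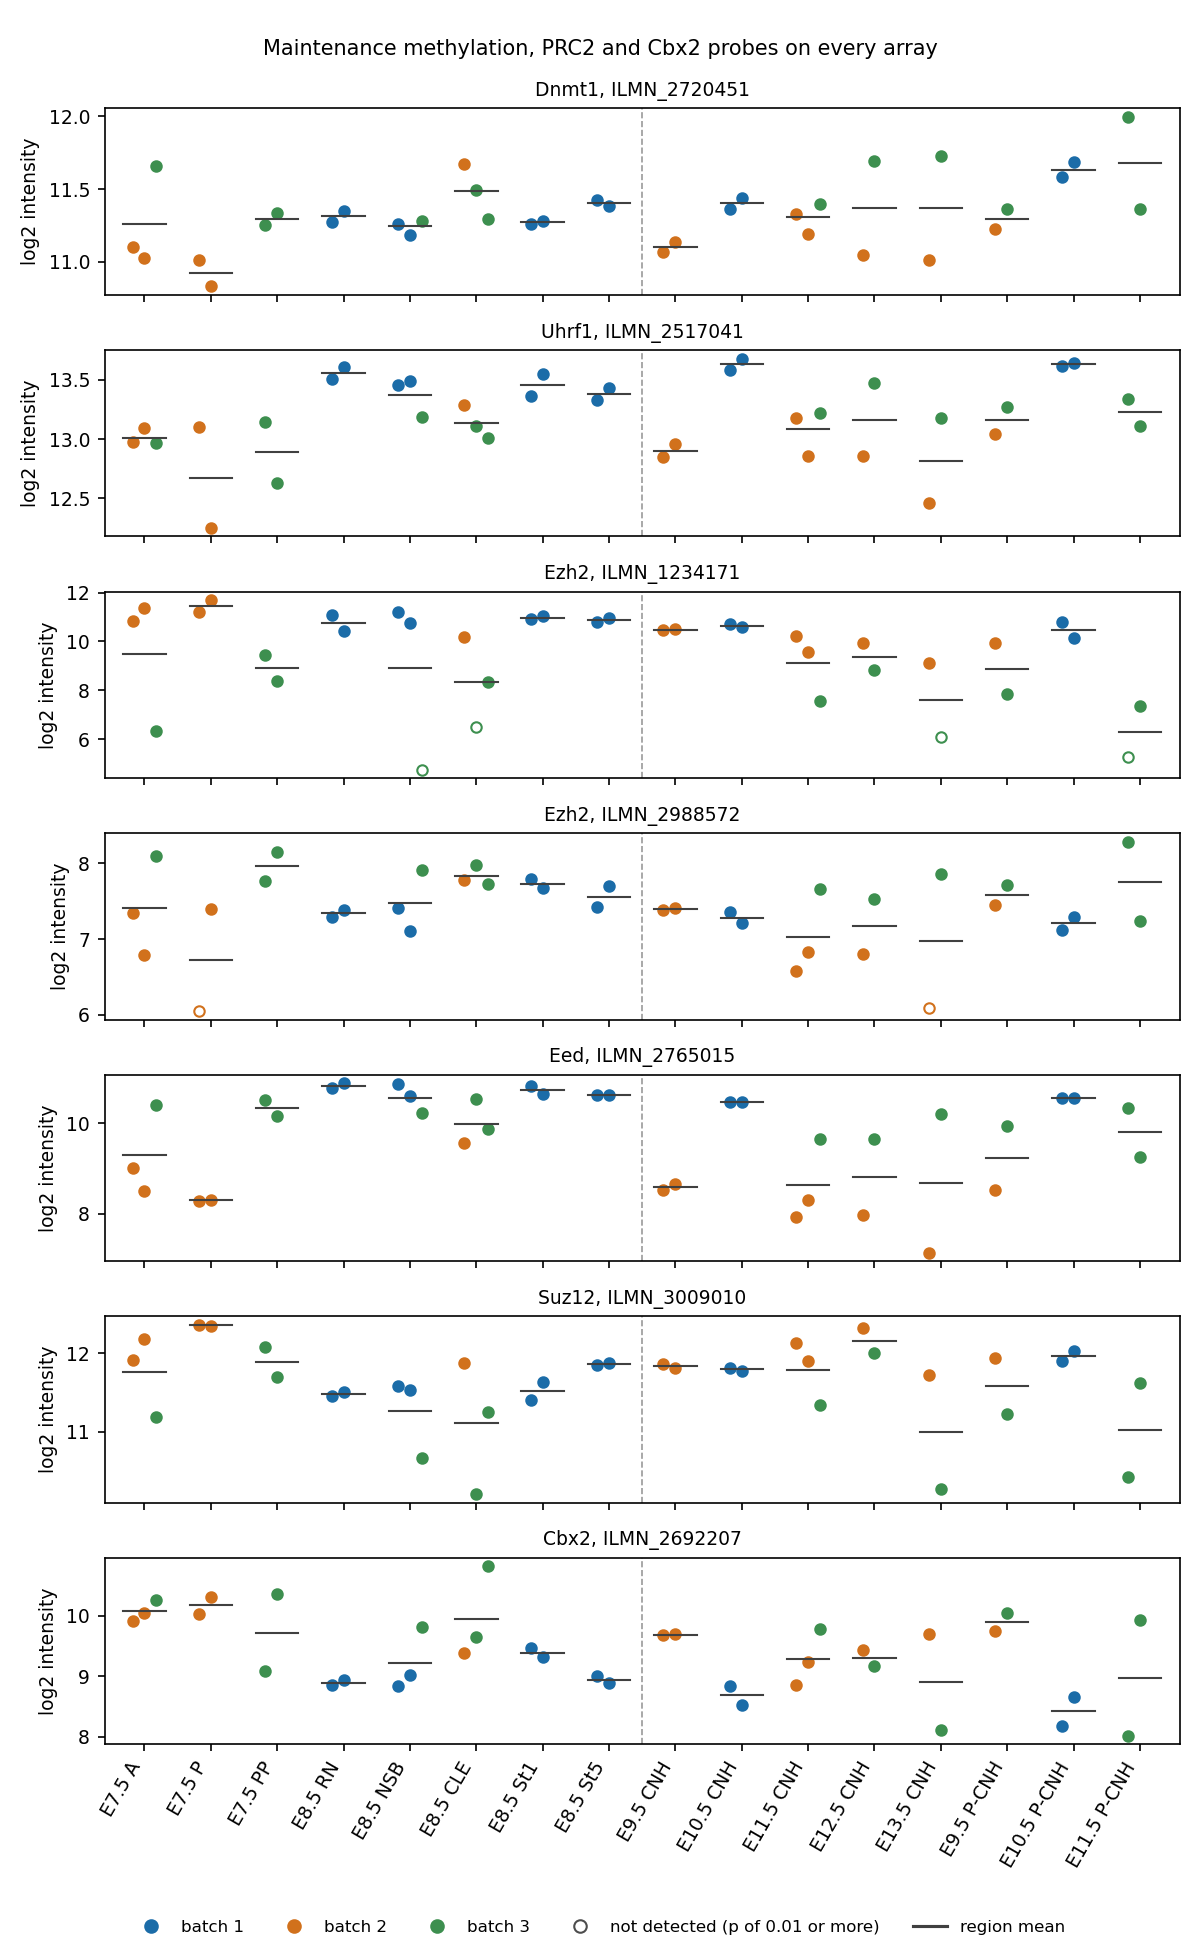
Log2 intensity of Dnmt1, Uhrf1, both tested Ezh2 probes, Eed, Suz12 and Cbx2 on each of the 36 arrays, by region, with colours for the batch and open points where undetected. Within a region, the points of ILMN_1234171 for Ezh2 and of Eed separate by batch; ILMN_1234171 ranges from 4.77 to 9.46 in batch 3.

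The first comparison sets early against late and asks how these genes stand before and after the tail bud takes over elongation. Dnmt3b fell in the late regions by 1.94 on the log2 scale (SE 0.111, adjusted p = 3.36e-12), 3.84-fold, from a mean of 13.54 ± 0.45 over the early to 11.62 ± 0.53 over the late arrays (SD). Its other probe fell by 2.62 (SE 0.168, adjusted p = 2.55e-11). Cbx7 fell by 3.15 (SE 0.141, adjusted p = 4.24e-14) from 7.98 ± 0.94, and Dnmt3l fell by 1.78 (SE 0.147, adjusted p = 1.88e-09) from 6.24 ± 1.52. Since both were undetected on all late arrays, their fold is a lower bound: undetected values of that group were raised to the lowest log2 intensity of any detected probe on the array. Bounds here and below use region means without the batch term. Cbx7 was so at least 3.72-fold lower and Dnmt3l at least 1.09-fold lower in the late regions, and the other Dnmt3l probe (-1.26, adjusted p = 7.4e-08) allows no bound above 1.

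Late regions thus had less RNA for Dnmt3b and Cbx7, while Dnmt3l was detected on 8 of 19 early and 0 of 17 late arrays. By the test, 3 of 9 members were lower and 0 higher, beside 8.46% of all tested probes that were lower. The members' median difference was -0.40, or -0.13 with undetected genes at their bound, and that of all tested probes -0.02. At an unadjusted p under 0.05 there were 5, the others being Eed and Cbx2. Eed differed by -0.40 (95% interval -0.74 to -0.05, adjusted p = 0.076) and Cbx2 by -0.57 (-1.04 to -0.09, adjusted p = 0.0655), and neither was called. For Dnmt1 the difference was 0.15 (-0.05 to 0.36), for Uhrf1 0.11 (-0.12 to 0.34) and for Suz12 0.05 (-0.24 to 0.34). For Ezh2 it was 0.04 (-0.58 to 0.65) and -0.23 with the other probe (-0.57 to 0.12).

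**Figure D3:**
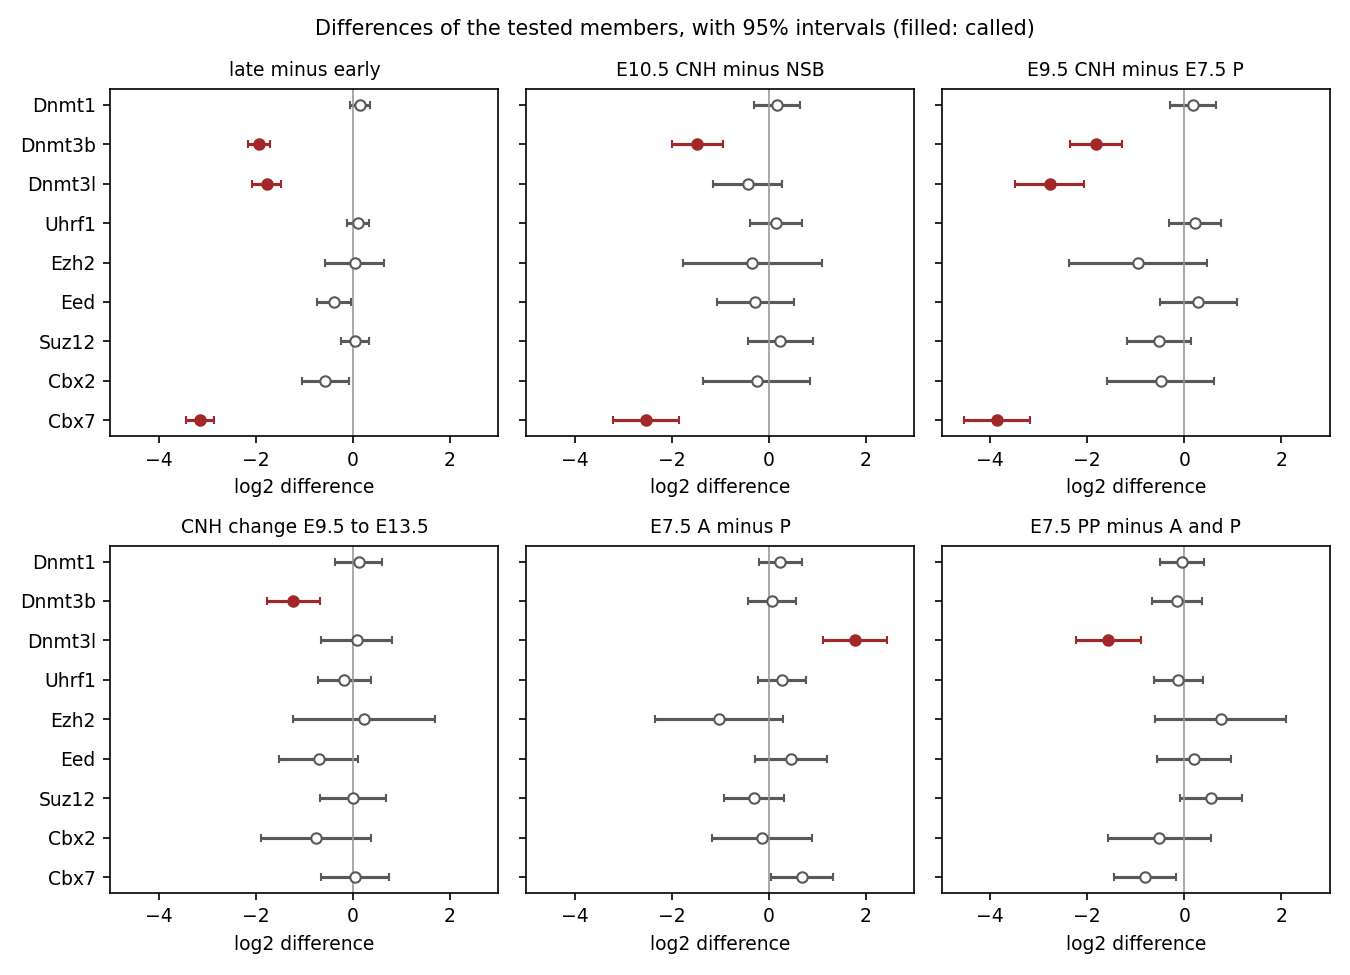
Log2 difference (horizontal axes) of the 9 tested members in 6 comparisons, with 95% intervals; filled points are called. Dnmt3b is called in 4 panels, Dnmt3l in 4 and Cbx7 in 3, and no other member in any.

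Within each batch, early and late arrays could be set against each other. Dnmt3b was lower in all 3, at -1.39, -2.53 and -1.98 (adjusted p = 1.23e-08, 1.85e-05 and 0.0135), and so was Cbx7 (3.47e-10, 2.45e-05 and 0.00578). Dnmt3l was undetected on all arrays of batch 1, and was called lower in batch 2 (adjusted p = 2.24e-05) and batch 3 (0.0189). No size is given for Cbx7 and Dnmt3l, since all late arrays were undetected. Batch 1 has no E7.5 array. In batch 2 alone, Ezh2 (-1.04, adjusted p = 0.00621) and Eed (-0.80, adjusted p = 0.00617) were also called lower. For Ezh2 this turns the direction of the pooled value: it differed by -0.34 in batch 1 and by 0.47 in batch 3, neither called.

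**Figure D4:**
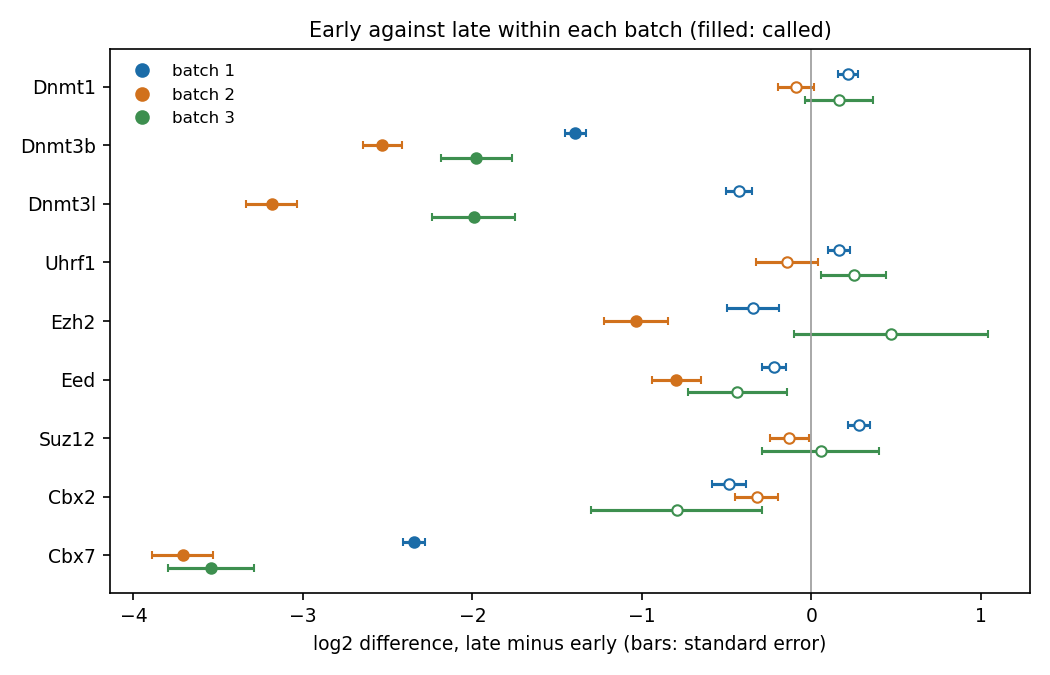
Log2 difference, late minus early (horizontal axis), of the tested members within batch 1, 2 and 3, with standard errors; filled points are called. Dnmt3b lies between -2.53 and -1.39; late values of Cbx7 and Dnmt3l are undetected, so their points give no fold.

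Other cell types differed between the groups as well. Blood markers rose in the late regions (6 of 6 called, none undetected in either group), with a summed log2 level of 7.60, 9.97 and 13.15 (lowest, median and highest) over early and 12.02, 14.84 and 15.91 over late arrays. The brightest probe was that of Hbb-b1 early and of Hbb-y late, which does not rank the amounts of different RNAs. Visceral endoderm markers fell (7 of 7 called), with sums of 8.13, 11.04 and 15.20 over early and 7.74, 8.05 and 9.00 over late arrays. The probe of Ttr was brightest early and that of Apoa1 late, and Afp, Ttr, Apoa2 and Apob were undetected on every late array. The part of blood and visceral endoderm in the members' differences was not tested.

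Of the other marker lists, streak and tail bud had 4 of 6 higher (T, Fgf8, Wnt3a and Tbx6) and Nkx1-2 lower. Surface ectoderm had 2 of 5 higher (Trp63 and Krt14), and sclerotome and cartilage 1 of 2 tested (Col2a1). Node and notochord had Noto higher and Foxa2 lower among 5. Lower were 2 of 3 posterior streak markers (Tbx4 and Isl1), 1 of 3 anterior markers (Otx2), 1 of 3 tested germ cell markers (Dnd1) and 1 of 4 tested neuronal markers (Stmn2). Most lists thus held some change between early and late tissue.

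Genes that work with the members were followed by list. Of 7 tested further genes of Polycomb repressive complex 2, Epop, a cofactor of the complex, fell by 0.86 (SE 0.105, adjusted p = 8.38e-07) and 0 rose, with a list median of -0.14 beside -0.02 for all tested probes. Of 19 genes of Polycomb repressive complex 1, 3 rose and 2 fell, with a median of -0.07, beside 2317 of 21712 probes higher and 1837 lower. Bcor (1.04), Scmh1 (0.68) and Yaf2 (0.60) rose, while L3mbtl2 fell by 0.89 and Pcgf6, which defines a variant form of the complex, fell by 0.84. Of 15 alternatives, Bcor and Pcgf6 kept their call in 14, L3mbtl2 in 13, Scmh1 in 11 and Yaf2 in 8, and Epop kept its call in 14. Among 5 genes that oppose Polycomb marks, 0 were called, with a median of -0.18.

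Around DNA methylation, Smug1, a glycosylase of base excision repair, rose 2.83-fold (adjusted p = 1.23e-10), from 8.78 ± 0.20 to 10.30 ± 0.55. Tet1, which oxidises methylcytosine, fell by 0.67 (adjusted p = 0.00558), and the other 5 of 7 genes of demethylation were not called (median 0.21). For proteins that bind methylated CpG, the median of the 5 tested genes was 0.27, and among those called Mbd1 rose (1.30) and Mbd4 fell by 0.60. Among 9 cofactors of DNA methylation Trdmt1 was lower (adjusted p = 0.00155; median -0.17 with bounds), with no fold given since it was detected on 3 early and 0 late arrays. Of 15 germline genes known for promoter methylation, 3 could be tested and 0 were called (median 0.05, or 0 with bounds). Smug1 and Mbd1 kept their call in 15 of 15 alternatives, Tet1 in 12 and Mbd4 in 6, and Trdmt1 in 8 of 14.

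Cell division genes showed no called difference between early and late, with 0 of 15 called and a median of -0.25. Of 10 tested genes of epiblast and pluripotency, 9 fell and 0 rose, with a median of -2.97, or -2.45 with undetected genes at their bound. Pou5f1 fell by 6.61 (SE 0.135, adjusted p = 2.42e-20), and Trh (-6.03) and L1td1 (-4.17) fell as well. In this order they were detected on 4, 7 and 5 of 17 late arrays, so that these sizes rest mostly on undetected late values. This list, like Dnmt3b and Cbx7, was high in the early regions.

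**Figure D5:**
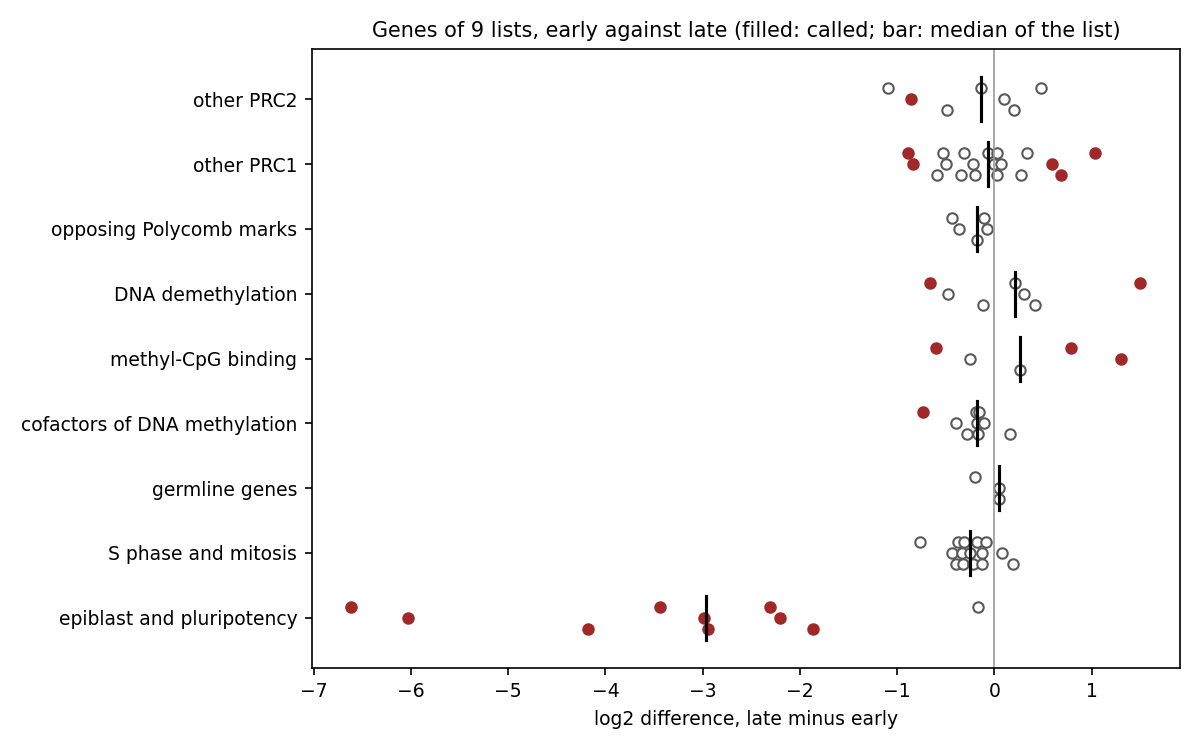
Log2 difference, late minus early (horizontal axis), of each tested gene of 9 lists; filled points are called and bars mark the median of a list. The epiblast list lies furthest from 0, with a median of -2.97; the other 8 medians lie between -0.25 and 0.27.

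The next comparison takes the regions known to hold neuromesodermal progenitors, NSB at E8.5 and CNH at E10.5, which share batch 1 but for NSB replicate 3. Dnmt3b fell from 13.37, 13.28 and 13.21 in NSB to 11.77 and 11.94 in E10.5 CNH (-1.47, SE 0.257, adjusted p = 0.000408), 2.76-fold. Its other probe fell by 1.98 (adjusted p = 0.00143), but without NSB replicate 1 it differed by -1.63 and was not called (adjusted p = 0.0537). Cbx7 fell by 2.52 (SE 0.327, adjusted p = 9.35e-06), from 7.28, 7.16 and 8.29 to 4.69 and 4.71 undetected. Without the batch term, its means were at least 3.91-fold apart. That figure takes in NSB replicate 3 (8.29, batch 3) and is not a bound on the 2.52. In both genes every CNH array lay below every NSB array. As the only tie of batch 1 to the others, NSB replicate 3 is taken up by the batch term. The differences thus rest on NSB replicates 1 and 2, and batch 1 alone gave the same -1.47 for Dnmt3b and -2.52 for Cbx7.

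These are 2 of 9 tested members, with 0 higher and 2 at an unadjusted p under 0.05, beside 3.6% of all probes lower. Dnmt3l was undetected in both regions. The members' median was -0.27, or -0.24 with bounds, beside -0.01 for all probes. Dnmt1 differed by 0.18 (95% interval -0.30 to 0.65) and Uhrf1 by 0.16 (-0.37 to 0.69).

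In the same comparison Smug1 rose by 1.40 (adjusted p = 0.000408), Mbd1 by 1.36 (0.0122) and Pcgf5, of a variant Polycomb complex, by 0.81 (0.0349), each 1 gene of its list. Epop fell by 1.16 (adjusted p = 0.00256). With single arrays left out, Mbd1 and Pcgf5 kept their call in 32 of 36 fits, and Mbd1 lost it with no batch term. Of 10 epiblast genes 7 fell, led by Pou5f1 (-5.94), Trh (-4.69) and L1td1, with a list median of -2.33, or -1.84 with bounds. L1td1 was undetected in E10.5 CNH. No fold is given for it, since its bound without the batch term exceeded the fitted value. Pou5f1 was detected on 1 of 2 E10.5 CNH arrays, so that its size rests partly on an undetected value. Blood markers rose in 3 of 6 (Hbb-y, Hbb-bh1 and Hba-x), with sums of 11.94, 10.77 and 10.21 in NSB, with the Hbb-b1 probe brightest and Hbb-y and Alas2 undetected, and 14.84 and 14.93 in E10.5 CNH, with the Hbb-y probe brightest. Visceral endoderm markers fell in 2 of 7 (Ttr and Amn), from sums of 10.21, 9.46 and 10.39 to 7.92 and 8.32. The brightest probe was that of Ttr in NSB and of Rbp4 in E10.5 CNH, where Afp, Ttr, Apoa2, Apob and Amn were undetected. Among the other markers Fgf8 (1.31) and Col2a1 (1.86) rose, and Stmn2 (-4.15), Dnd1 (-1.67) and Nkx1-2 (-1.84) fell, as did Tbx4 and Otx2, both undetected in E10.5 CNH. Their part in the result was not tested.

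E7.5 P and E9.5 CNH lie on 1 BeadChip, so that neither batch nor BeadChip enters this comparison. Dnmt3b fell from 14.27 and 13.98 in P to 12.29 and 12.32 in E9.5 CNH (-1.82, SE 0.257, adjusted p = 3e-05), 3.54-fold, and its other probe fell by 2.75 (adjusted p = 3.21e-05). From 8.62 and 8.75 in P, Cbx7 fell by 3.87 (SE 0.327, adjusted p = 1.69e-08), at least 5.57-fold. From 7.44 and 7.31, Dnmt3l fell by 2.77 (SE 0.342, adjusted p = 4.85e-06), at least 2.25-fold, and its other probe at least 1.69-fold. The same 3 genes were thus lower in the first CNH sampled than in the posterior region 2 days before.

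With 3 of 9 tested members lower, 0 higher and 3 at an unadjusted p under 0.05, this stands beside 4.63% of all probes lower. The members' median was -0.52, also with bounds, and that of all probes 0.03. Ezh2 differed by -0.96 (95% interval -2.38 to 0.47), or by 0.68 with its other probe (-0.13 to 1.49), and neither was called. E7.5 P replicates 1 and 2 read 6.05 undetected and 7.40 on that other probe. Without P replicate 2 its difference was 1.35 and called (adjusted p = 0.0456). Suz12 differed by -0.52 (-1.19 to 0.15) and Cbx2 by -0.49 (-1.59 to 0.62).

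Among the partners, Smug1 rose by 2.17 (SE 0.244, adjusted p = 1.29e-06), 4.51-fold, between E7.5 P and E9.5 CNH. In Polycomb repressive complex 1, Bmi1 (-2.31, adjusted p = 0.00195), Cbx8 (-1.11, adjusted p = 0.0303) and Pcgf6 (-0.80, adjusted p = 0.0319) fell, 3 of 19 genes. Bmi1 and Cbx8 were undetected in E9.5 CNH, which makes them at least 2.5-fold and 1.35-fold lower. Of 13 alternatives, Bmi1 and Pcgf6 kept their call in 12 and Cbx8 in 10. Of 10 epiblast genes 8 fell, led by Pou5f1 (-5.59), Otx2 (at least 13.4-fold) and Trh (-4.63), with a list median of -3.36, or -3.15 with bounds. Blood markers rose in 5 of 6, from sums of 7.80 and 8.91, Hbb-b1 brightest and Hbb-y, Hbb-bh1 and Hba-x undetected, to 15.19 and 15.21, Hbb-y brightest. Visceral endoderm markers fell in 5 of 7, from 12.57 and 13.39, Amn brightest, to 8.05 and 8.10, with all 7 undetected in E9.5 CNH. Among the other markers Fgf8 (2.62), Cdx2 (0.84) and Col2a1 (1.96) rose, and Dnd1 (-2.94), Cldn4 (-2.35) and Stmn2 (-2.12) fell, as did Isl1, Elavl3 and Otx2, all undetected in E9.5 CNH. Their part in the result was not tested.

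Within the CNH the question was whether levels went on changing from E9.5 to E13.5, fitted as a line over the 5 days. Dnmt3b fell by 1.23 over the 4 days from E9.5 (SE 0.263, adjusted p = 0.00285), 2.35-fold, and its other probe fell by 1.76 (adjusted p = 0.0047). This is 1 of 9 members lower, with 0 higher and 1 at an unadjusted p under 0.05, beside 5.82% of all probes lower. Cbx7 and Dnmt3l were undetected throughout. With BeadChip in place of batch as a term, the Dnmt3b change was -0.91 and not called (adjusted p = 0.11), and Ezh2 was called instead (2.93, adjusted p = 0.0201). With cyclic loess normalisation the Dnmt3b value was -1.14 and was not called (adjusted p = 0.119), while the median of all probes moved from -0.09 to 0.06.

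Eed differed by -0.71 over these days (95% interval -1.53 to 0.11) and was not called. Without E13.5 CNH replicate 2, the array with the fewest detected probes, it fell by 1.33 (adjusted p = 0.0181). Cbx2 differed by -0.76 (-1.90 to 0.38), and without E13.5 CNH replicate 1 it fell by 1.62 (adjusted p = 0.0398). Dnmt1 differed by 0.12 (-0.37 to 0.60) and Uhrf1 by -0.18 (-0.72 to 0.37). Eed was called as well when the count of probes detected per array entered the fit. The outcome for Eed and Cbx2 over the CNH days thus depended on the arrays and terms in the fit.

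Over the same days genes that fell were Epop (-1.15, adjusted p = 0.0031), Pcgf6 (-0.95, 0.0103), Cdca7 (-0.73, 0.0351), Mcm7 (-1.15, 0.0157) and Smug1 (2.83-fold, 0.000243). Cbx6 (1.22, adjusted p = 0.014), Tet2 (1.44, adjusted p = 0.047) and Gadd45b (adjusted p = 0.00165) rose, the latter at least 1.83-fold since it was undetected at E9.5 and E10.5. Tet2 was detected on 2 of 4 arrays at E9.5 and E10.5. Epop and Smug1 kept their call in 12 of 12 alternatives, Gadd45b in 11, Pcgf6 and Cbx6 in 9, Cdca7 in 8, Mcm7 in 7 and Tet2 in 3. Of 10 epiblast genes 4 fell, among them Lin28a (-6.32), Trh (at least 3.28-fold) and Pou5f1 (no bound above 1). At E12.5 and E13.5 Lin28a was detected on 1 of 4 arrays, so that its size rests mostly on undetected values there. Surface ectoderm markers rose in 3 of 5 (Trp63, Krt14 and Cldn4), with sums of 8.21 and 8.32 at E9.5, 8.81 and 8.96 at E10.5, 9.69, 8.83 and 9.97 at E11.5, 10.66 and 10.73 at E12.5 and 12.04 and 12.06 at E13.5, where the Krt14 probe was brightest and Krt15 undetected. Streak and tail bud markers fell in 4 of 6 (Fgf8, Wnt3a, Cdx2 and Nkx1-2), from sums of 15.27 and 15.32 at E9.5 to 13.81 and 14.54 at E13.5, with the T probe brightest and none undetected. Hbb-b1 (3.73), Bmp4 (1.76) and Col2a1 (1.34) also rose, and Hbb-bh1 (-4.57), Noto (-1.88), Kit and Stmn2 (undetected at E12.5 and E13.5) fell. Their part in the result was not tested.

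At E7.5, Dnmt3l was higher in the anterior than in the posterior region. It read 8.84, 9.499 and 8.70 in A against 7.44 and 7.31 in P, a difference of 1.77 (SE 0.318, adjusted p = 0.00142), 3.42-fold. Its other probe differed by 1.47 (SE 0.282, adjusted p = 0.00297), or by 1.09 without P replicate 1 (adjusted p = 0.132). Within batch 2, where 4 of the 5 arrays share a BeadChip, the difference was 1.79 (adjusted p = 0.0171). Every A array lay above every P array on both probes.

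This is 1 of 9 members higher and 0 lower, with 2 at an unadjusted p under 0.05, beside 1.21% of all probes higher. Cbx7 was the other, with a difference of 0.69 (95% interval 0.06 to 1.32, adjusted p = 0.385). Dnmt3b differed by 0.07 (-0.42 to 0.57), and by 1.31 with its other probe (0.56 to 2.06, adjusted p = 0.0541). The 2 Dnmt3b probes thus differed in size here, and the difference between probes was not tested. The members' median was 0.24 and that of all probes 0.04.

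With Dnmt3l, 4 of 10 epiblast genes were higher in A, among them Otx2 (by 2.47), Utf1 (by 2.31) and Fgf5 (by 2.11), and 0 lower. Epop differed by -0.93 (adjusted p = 0.0226), a call kept in 11 of 13 alternatives. Anterior markers were higher in 2 of 3 (Otx2 and Six3), with Hesx1 not called, Six3 detected on 1 A array, and sums of 12.71, 12.53 and 11.92 in A and of 9.93 and 10.11 in P, where Six3 and Hesx1 were undetected, the Otx2 probe being the brightest. Streak markers were lower in 6 of 6, with sums of 11.27, 11.38 and 10.58 in A against 14.57 and 14.60 in P, where the T probe was brightest, and Wnt3a and Tbx6 undetected in A. Also called were Sox9 (1.29), Col2a1 (1.88) and Shh (2.14) higher and Apob (-2.14) lower in A. Their part in the result was not tested.

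In the proximal posterior region, Dnmt3l was lower than the mean of A and P. It read 6.19 and 6.37 there, and fell by 1.57 against that mean (SE 0.326, adjusted p = 0.00542), 2.96-fold, while its other probe fell by 1.79 (adjusted p = 0.000485). All PP arrays lay below all A and P arrays, but the fitted step from P to PP alone, 0.68, had a 95% interval from -0.13 to 1.48, which holds 0. With BeadChip as a term the differences were -1.52 and -1.45 and not called (adjusted p = 0.0928 and 0.0581), and without PP replicate 1 the first probe differed by -1.48 and was not called (adjusted p = 0.106). PP lies in batch 3 and P in batch 2.

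This is 1 of 9 members lower and 0 higher, with 2 at an unadjusted p under 0.05, beside 1.57% of all probes lower. Cbx7 differed by -0.81 (95% interval -1.46 to -0.16, adjusted p = 0.196). The brighter Dnmt3b probe differed by -0.15 (-0.65 to 0.36) and the other fell by 1.42 (adjusted p = 0.0303), a call lost without PP replicate 1 (-1.04, adjusted p = 0.52) and with the replicate number as a further term (-1.07, adjusted p = 0.172). It was lost as well without A replicate 3 (-1.34), P replicate 1 (-1.27), CLE replicate 1 (-1.31) or E11.5 CNH replicate 3 (-1.39), with adjusted p of 0.0648, 0.0922, 0.0528 and 0.0543. The members' median was -0.12 and that of all probes -0.01.

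Alongside, Pcgf5 (1.08, adjusted p = 0.00544), Kdm2b (0.76, adjusted p = 0.0476) and Scml2 (1.27, adjusted p = 0.0305), 3 of 19 genes of Polycomb repressive complex 1, were higher in PP. Scml2 was detected on 2 of 5 A and P arrays. Of 12 alternatives, Pcgf5 kept its call in 11 and Kdm2b and Scml2 in 7, and Kdm2b kept it in 8 of 36 fits with an array left out. Of 10 epiblast genes 4 were lower, among them Otx2 (-4.61), Pou3f1 (-3.19) and Fgf5 (at least 5.71-fold). Streak markers were higher in 6 of 6, with sums of 14.71 and 15.38 in PP, where the Cdx2 probe was brightest. Visceral endoderm markers were higher in 4 of 7 (Afp, Apoa2, Apob and Rbp4), with sums of 14.13 and 15.20 in PP, 11.04, 11.08 and 13.41 in A and 12.57 and 13.39 in P, the Ttr probe being the brightest in PP and none undetected there. Also called were Bmp4 (2.00) and Tbx4 (undetected in A and P) higher, and Sox9 (-1.40), Col2a1 (-1.81), Elavl3 (-1.44) and Shh (undetected in PP) lower. Their part in the result was not tested.

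Space at E8.5 and within the tail bud gave no called member. In the limma F test over RN, NSB, CLE, St1 and St5, 0 of 9 members were called, 0 had an unadjusted p under 0.05, and 6.6% of all probes were called. For Dnmt3b the 5 fitted means spanned 0.37, for Cbx7 0.67 and for Dnmt1 0.31. Set against the other 4 regions with limma, 0 members were called in RN (2.25% of all probes called in either direction), NSB (2.18%), CLE (1.01%), St1 (0.451%) or St5 (5.47%). Below an unadjusted p of 0.05 lay 1 member in CLE, Ezh2 at 2.73 (95% interval 0.85 to 4.61, adjusted p = 0.272), and 0 in the other 4. In CLE its probe read 10.19 in batch 2 and 6.52 undetected and 8.33 in batch 3. Cbx7 in St5 differed by -0.58 (-1.18 to 0.01) and Dnmt3b by -0.32 (-0.78 to 0.15).

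Between CNH and P-CNH, compared jointly at E9.5, E10.5 and E11.5, limma called 0 of 9 members, 0 had an unadjusted p under 0.05, and 0.599% of all probes were called. The intervals were -0.49 to 0.15 for Dnmt3b, -0.43 to 0.14 for Dnmt1 and -0.37 to 0.26 for Uhrf1. Cbx7 and Dnmt3l were undetected on both sides. The change from E9.5 to E11.5 also did not differ between CNH and P-CNH past the threshold for any member (adjusted p = 0.999 for each of the 9), with Dnmt3b at 0.07. Of the lists, Trh was the 1 epiblast gene called, higher in CNH by 1.59 (adjusted p = 3.09e-06). Trh was detected on 4 of 7 CNH and 3 of 6 P-CNH arrays, so that this size rests partly on undetected values. Of the markers, Sox9 (1.51), Shh, Noto and Foxa2 were called higher in CNH. No difference is given for the latter 3, since Foxa2 was undetected in P-CNH at each day and Shh and Noto at E9.5 and E10.5.

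Some members followed each other over the 16 fitted region means, given here as a description with no test, since regions share stage and batch. Dnmt3b correlated with Cbx7 at r = 0.931, with Cbx2 at 0.841, with Eed at 0.823 and with Dnmt3l at 0.805. Cbx7 with Dnmt3l gave 0.893 and with Cbx2 0.7, and the late means of Cbx7 and Dnmt3l come from undetected values. Dnmt1 with Uhrf1 gave 0.522, Ezh2 with Suz12 0.715 and Ezh2 with Eed -0.04. Dnmt1 ran against Cbx2 (-0.663), Dnmt3b (-0.61) and Cbx7 (-0.544), and Uhrf1 against Ezh2 (-0.514).

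Among 5930 other genes that varied over the regions, those most like Dnmt3b over the 16 means were Lrp11 (r = 0.979), Denr (0.977) and Hspbap1 (0.975). For Dnmt3l they were 2900011O08Rik (0.947), Zfp36l3 (0.941) and Tmem130 (0.939). For Cbx7 they were Ldhc (0.986), EG433229 (0.976) and Pnma2 (0.971). Late means of Cbx7 and Dnmt3l come from undetected values here too. For Dnmt1 they were Pknox1 (0.886), Arhgap22 (0.854) and LOC100047839 (0.85), and for Uhrf1 Wscd1 (0.887), Sgsm1 (0.848) and Abr (0.841). Dnmt1, Uhrf1, Eed, Suz12 and Cbx2 were not called over the regions, so their r may rest on spread between arrays. Every r here is among the highest of 5930 genes and has no test. For Ezh2 they were A530089A20Rik (0.984), Thoc2 (0.973) and Ankrd11 (0.966), for Eed Kpnb1 (0.959), Tsr1 (0.949) and Akr1b3 (0.941), for Suz12 Lgmn (0.931), AI848100 (0.927) and scl0001550.1_29 (0.913), and for Cbx2 5830468K18Rik (0.939), LOC100039062 (0.936) and LOC677205 (0.917).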

How the data were processed

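The authors deposited, for 36 arrays and 45281 probes, the mean bead intensity on a linear scale, with background in it and without normalisation between arrays. The authors also deposited a detection p-value for each probe and array, against the negative-control beads of the array. All of these columns were used (0 left out). The submitters' processing notes name lumi, without a version, and its output was not used here. In R 4.3.3, limma 3.58.1 (neqc) corrected the background by normexp with an offset of 16 and normalised by quantiles. A probe was tested if its detection p-value fell below 0.01 on 1 array or more, which kept 21712 probes and left out 23569.

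All arrays entered 1 limma model with terms for region and batch and 18 residual degrees of freedom. Tests were two-sided, p-values were adjusted by Benjamini-Hochberg over all tested probes, and a call needed an adjusted p of at most 0.05 and at least 1.5-fold. Groups were taken from the labels. Late against early is the mean of 8 regions against the mean of 8, and the CNH trend is a linear contrast. The method was tested on simulated data. Sequences were read from RefSeq tables by Python 3.11.15, and figures were drawn with matplotlib 3.10.9 and NumPy 2.4.6. The deposited table names no genome build, and Cbx2 has no listed promoter.

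Named genes are all members, up to 3 called genes in each direction with the largest difference from each list and comparison, and the 3 genes most like each member. Members and lists were chosen with earlier results of these data known. The lists are further genes of Polycomb repressive complexes 1 and 2, genes opposing Polycomb marks, DNA demethylation, methyl-CpG binding, cofactors of DNA methylation, germline genes, cell division genes and epiblast genes. Marker lists cover blood, visceral endoderm, surface ectoderm, germ cells, neurons, sclerotome and cartilage, node and notochord, streak and tail bud, posterior streak and anterior E7.5.

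The alternatives tried were cyclic loess, an offset of 100, uncorrected background, no batch term, ComBat, BeadChip as a random block or fixed term, the replicate number as a further term, a stricter filter, no filter, each batch alone, any probe of a member and each array left out in turn. Added after seeing the data were leaving out the 2 arrays with the fewest detected probes and a covariate for how many probes an array detected.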

Additional observations from a re-analysis of the deposited data

How the results depend on the processing

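Dnmt3b and Cbx7 were called lower in late than in early regions under each of the 15 alternatives that refit a probe and with each of 35 arrays left out, and so was Dnmt3l except within batch 1. Counts of members called changed by over 1.5 times in these cases, whose cause was not tested. Over the E8.5 regions it went from 0 to 1 with no batch term (Cbx7) and to 1 with ComBat (Ezh2). For early against late it went from 3 to 5 within batch 2, and for the CNH trend from 1 to 0 with cyclic loess. That trend gave 2 without the 2 arrays with the fewest detected probes and 2 with detected probes as a covariate, both adding Eed. For PP it went from 1 to 2 with ComBat (Cbx7), to 0 with BeadChip as a fixed term and to 2 with any probe (Dnmt3b). Called genes of the lists, early against late, went from 21 to 10 within batch 3. The Ezh2 difference turned from 0.04 to -1.04 within batch 2. With single arrays left out, counts ranged from 3 to 5 over the 16 regions, 0 to 0 over E8.5, 3 to 4 for early against late (Cbx2 added), 2 to 2 for E10.5 CNH against NSB, 3 to 3 for E9.5 CNH against E7.5 P, 1 to 2 for the trend, 1 to 1 for A against P, 0 to 1 for PP, 0 to 0 for CNH against P-CNH and 19 to 22 for the lists. Where 1 array of a region remained, it was taken to vary like the other groups. Without NSB replicate 3, comparisons across batch 1 and the others could not be estimated, and single batches do not hold the regions for PP, the E8.5 test or the trend. Of 51 called list differences that the naming rule picks, 24 kept their call in every other alternative and 33 with every array left out. Pairing of regions by replicate number was checked with an r that is not the correlation of array intensities. It was above 0.1 in 8 of 15 pairs of regions of batch 1, where the number is that of the BeadChip (median 0.183). In batches 2 and 3 it was above 0.1 in 24 of 96 pairs (median -0.039). Signal over background limits Dnmt3a, and Dnmt3l and Cbx7 in late regions, to statements on detection and lower bounds.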
